A study of Mus musculus with 12 samples.

Results

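Nonsense-mediated mRNA decay factors were examined in mouse blastocysts, on arrays that carried 13 probe sets for 6 of 9 listed genes. A probe set is a group of short oligonucleotides on the array that together report 1 transcript or part of it. The list held the kinase Smg1, the effectors Smg5 and Smg6, the helicase Upf1, the adaptors Upf2, Upf3a and Upf3b, and the exon junction proteins Magoh and Casc3. A probe set was included if the platform's probe table paired it with exactly 1 of these genes, which took 13 of 45037 probe sets. Upf3a, Upf3b and Magoh had no probe set under that rule and were not analysed here. The list was chosen on the measured signal of an Smg1 probe set, which was higher than control after both treatments, so all Smg1 values against control are given as a description, with no test.

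The study, whose title places the Ca2+ oscillatory pattern in the fertilised egg, gave 12 arrays in 3 groups of 4. One group was cultured in medium free of Ca2+ (Ca-free medium), one was treated by 20 Ca2+ pulses (20 pulses), and one was the control, described in the labels as normal blastocysts. No strain, genotype, embryo age, pulse form or duration was given in the labels for any of the groups. The labels also do not say whether the 4 replicates of a group were taken from separate embryo collections, and a p-value here covers the spread between these samples alone, which may be technical. All values are MAS5 signals, multiplied by 3.33 so that every array had a trimmed mean of 500, and called signal below. Changes are differences of group means of log2(signal + 32), which understates the change of dim probe sets.

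Nonsense-mediated decay destroys mRNAs in which the ribosome stops at a premature termination codon. In mammals, Upf1 gathers at the stalled ribosome, binds Upf2 and Upf3 on an exon junction complex lying downstream, and is phosphorylated by Smg1. Phosphorylated Upf1 then recruits Smg6, which cuts the mRNA near the stop codon, and Smg5, which helps to bring in enzymes that remove the tail and the cap. In mouse, loss of several of these factors is lethal to the embryo.

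The blastocyst label was checked against 12 markers of the inner cell mass, trophectoderm and primitive endoderm. All 12 were measured, and their summed signal was 50324 to 52669 in Ca-free medium, 51844 to 52706 after 20 pulses and 50954 to 53077 in control. The sum is carried by the brightest markers, and single lineage genes differed. In Ca-free medium 2 of the 12 were called higher than in control, Cdx2 (log2 change 0.28) and Pou5f1 (0.20), and 2 lower, Eomes (-0.70) and Gata4 (-0.69). Among all genes tested, 12.2% were called higher and 28.8% lower in that comparison. After 20 pulses 1 of the 12 was called higher, the endoderm gene Sox17 (1.00, limma adjusted p = 0.0269), beside 0.735% higher and 0.331% lower over all genes. The part of these lineage genes in the member results was not tested. Since whole embryos were hybridised, fewer cells of a type and less RNA per cell cannot be told apart.

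The promoters of 4 genes are shown first. They are Smg1, the gene on which the list was chosen, and Upf1, the single factor called higher in Ca-free medium. The others are the effectors Smg5 and Smg6, each with a probe set called lower there and at least 1 that was not called. Each run is the 250 bases before the start that the RefSeq promoter table gives for the gene, 5′ to 3′ on the gene's own strand, on GRCm38.p6. For Smg1 the whole window, and for Upf1 part of it, lies within the span that RefSeq annotates to the gene, and that span begins further upstream. The windows are chr7:118243638-118243887 (minus strand) for Smg1, chr8:70353280-70353529 (minus strand) for Upf1, chr3:88336010-88336259 (plus strand) for Smg5 and chr11:74925604-74925853 (plus strand) for Smg6. Capitals mark matches to the GC box GGGCGG or the CCAAT box CCAAT, each searched on both strands.
Smg1: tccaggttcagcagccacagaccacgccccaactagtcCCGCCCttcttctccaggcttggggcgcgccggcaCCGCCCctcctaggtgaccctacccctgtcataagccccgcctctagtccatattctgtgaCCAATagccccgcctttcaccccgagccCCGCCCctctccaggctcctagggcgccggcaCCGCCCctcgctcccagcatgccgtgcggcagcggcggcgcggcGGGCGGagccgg
Upf1: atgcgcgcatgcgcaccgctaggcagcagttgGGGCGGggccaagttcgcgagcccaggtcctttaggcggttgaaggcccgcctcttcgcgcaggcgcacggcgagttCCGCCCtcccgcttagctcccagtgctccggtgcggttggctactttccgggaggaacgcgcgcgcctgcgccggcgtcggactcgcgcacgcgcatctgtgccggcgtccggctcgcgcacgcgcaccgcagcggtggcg
Smg5: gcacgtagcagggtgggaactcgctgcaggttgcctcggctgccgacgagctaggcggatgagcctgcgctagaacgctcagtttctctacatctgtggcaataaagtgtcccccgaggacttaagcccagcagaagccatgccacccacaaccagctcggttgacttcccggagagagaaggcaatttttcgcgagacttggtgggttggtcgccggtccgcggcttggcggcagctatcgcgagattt
Smg6: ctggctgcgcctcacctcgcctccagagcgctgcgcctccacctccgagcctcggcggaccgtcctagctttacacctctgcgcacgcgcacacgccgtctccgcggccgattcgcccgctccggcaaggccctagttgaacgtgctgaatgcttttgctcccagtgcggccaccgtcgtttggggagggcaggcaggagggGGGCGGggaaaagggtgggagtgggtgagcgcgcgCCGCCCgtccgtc
The Smg1 window held 5 GC boxes and 1 CCAAT box, the Upf1 and Smg6 windows held 2 GC boxes each, and the Smg5 window held neither. GC boxes occurred in 32.7% and CCAAT boxes in 33.9% of all 32851 promoter windows of that length. None of the 4 windows held a TATA box (TATAAA, in 12.4% of windows), a cAMP response element (TGACGTCA, in 1.55%) or an E-box (CACGTG, in 6.02%). GC content was 70.8% for Smg1, 72.8% for Upf1, 59.6% for Smg5 and 70.4% for Smg6, against a median of 52.4% over all windows. CpG dinucleotides numbered 23 for Smg1, 41 for Upf1, 20 for Smg5 and 30 for Smg6, against a median of 6. These matches describe the letters in the windows and do not show that a factor binds there.

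Smg1 is the phosphatidylinositol 3-kinase-related kinase that phosphorylates Upf1. It had 4 probe sets, of which only 1457262_at stood above control after both treatments. Its signal was 395, 388, 307 and 319 on the 4 Ca-free arrays, 296, 349, 407 and 303 on the 20-pulse arrays, and 73.1, 63.5, 96.7 and 133 on the control arrays. Every treated array lay above every control array, and the treated groups overlapped each other. The lowest Ca-free array was 2.32 times and the lowest 20-pulse array 2.24 times the highest control array. Group means were 352 ± 45.7 in Ca-free medium, 339 ± 51.4 after 20 pulses and 91.5 ± 30.7 in control (SD, n = 4 each), which makes ratios of means to control of 3.85 and 3.71.

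On the log2 scale, Smg1 1457262_at differed from control by 1.66 (SE 0.17) in Ca-free medium and by 1.61 (SE 0.17) after 20 pulses. Both differences are set against the same control arrays. The contrast between the treatments was not itself used to draw up the list, but the choice required both treated groups to be high. That favours treated groups that are alike, so the values below are not an independent test of Smg1 1457262_at. Smg1 1457262_at differed by 0.054 on the log2 scale between Ca-free medium and 20 pulses (95% interval -0.30 to 0.41, limma adjusted p = 0.822). That interval is the range of treatment differences compatible with these arrays, and it does not show that the treatments act alike. Across controls 1 and 2 the Ca-free difference was 1.93 and the 20-pulse difference 1.88, and across controls 3 and 4 they were 1.39 and 1.34, the first pair of controls having the lower signals.

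The other Smg1 probe sets did not follow it. Smg1 1428539_at read 1111, 1106, 1162 and 988 on the Ca-free arrays, 1392, 1331, 1257 and 1198 on the 20-pulse arrays, and 1352, 1162, 1016 and 1174 on the control arrays. Each treated group overlapped control, with log2 differences of -0.099 in Ca-free medium and 0.14 after 20 pulses, while all Ca-free arrays lay below all 20-pulse arrays. That last difference was -0.24 and did not pass the threshold (limma adjusted p = 0.0535). Smg1 1455657_at read 907, 991, 1016 and 913 on the Ca-free arrays, 1463, 845, 882 and 1058 on the 20-pulse arrays, and 945, 1062, 932 and 914 on the control arrays. All 3 groups overlapped, and the first 20-pulse array stood well above the other 3 of its group.

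The fourth Smg1 probe set, 1442925_at, had a mean signal of 64.7 over the 12 arrays, well below the minimum mean of 100 required for testing. It read 108, 50.1, 96.6 and 78.9 on the Ca-free arrays, 83.5, 56.5, 45.6 and 39.2 on the 20-pulse arrays, and 48.0, 38.7, 66.4 and 65.6 on the control arrays, with overlap between all groups. Just inside that minimum was Upf2 1445777_at with a mean of 106. Smg1 1457262_at itself passed only through the treated groups, since its control mean of 91.5 is under the minimum. Upf2 1445777_at passed only through 20 pulses and control, since its Ca-free mean is 69.4, so that its admission to the test is not independent of a low Ca-free signal.

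**Figure D1:**
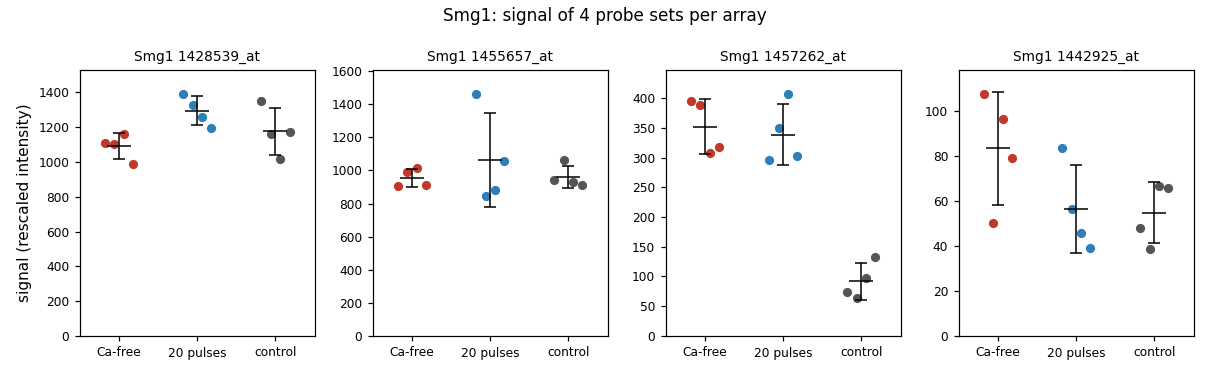
Signal (rescaled intensity, linear axis from 0) of the 4 Smg1 probe sets, with a panel each. Points are arrays of Ca-free medium, 20 pulses and control from left to right, and bars are the group mean and SD of 4 arrays. For 1457262_at all 8 treated arrays lie at 296 or above and all control arrays at 133 or below, while the groups of the other probe sets overlap control.

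The change of each probe set was also set against that of the brightest probe set of the same gene within each array. In that difference the scaling of the array cancels except for the added 32, but a shift that depends on signal level does not cancel. For Smg1 1457262_at against 1428539_at, the log2 change was larger by 1.76 in Ca-free medium (SE 0.20) and by 1.47 after 20 pulses (SE 0.20). For 1455657_at against 1428539_at, the same quantity was 0.090 in Ca-free medium and -0.034 after 20 pulses (SE 0.15 each). Between Ca-free medium and 20 pulses, the difference for 1457262_at was 0.29 and did not pass the threshold (limma adjusted p = 0.340). That comparison is not independent of the choice of this probe set, which required both treated groups to be high. The sequences of the oligonucleotides were not used here, so which part of the Smg1 transcript each probe set reads is not given.

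The 5 probe sets of other single genes whose log2 signal followed Smg1 1457262_at most closely over the 12 arrays belonged to Elovl1, Glo1, Smc6, Luc7l3 and L1td1. Pearson's r was 0.968 for Elovl1, which elongates fatty acids, 0.967 for Glo1, which detoxifies methylglyoxal, and 0.959 for Smc6, a subunit of a DNA repair complex. It was 0.949 for Luc7l3, a splicing factor, and 0.941 for L1td1, an RNA-binding protein. Glo1 averaged 3061 ± 149.8 in Ca-free medium, 2964 ± 219 after 20 pulses and 2179 ± 147 in control. Smc6 averaged 1823 ± 152 in Ca-free medium, 1678 ± 87.8 after 20 pulses and 1162 ± 56.1 in control (SD, n = 4 each). The points are group levels as much as single arrays, since 8 of them are treated and 4 are controls, so the coefficients describe a shared step between control and treated arrays.

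Of the 9 tested probe sets of the other 5 genes, 1 was called higher and 4 were called lower in Ca-free medium than in control at a limma adjusted p under 0.05 (Benjamini-Hochberg over 27808 probe sets). Over all tested probe sets, 10.6% were called higher and 29.7% lower in this comparison. Of the 4 called lower, Upf2 1445777_at passed the filter only through the groups in which it is high. The median log2 change of the 9 was -0.26, beside -0.18 over all tested probe sets. All 4 Ca-free arrays lay above all control arrays for 1 of the 9 and below them for 3, beside 9.23% and 27% of all tested probe sets. After 20 pulses, 0 of the 9 were called against the same controls by limma, where 1.48% of all tested probe sets were called. There, 0 of the 9 passed an unadjusted p under 0.05, and for 0 of them did all 20-pulse arrays lie above or below all control arrays, beside 5.85% above and 5.11% below over all tested probe sets. The median log2 change after 20 pulses was 0.042 over the 9 and -0.027 over all.

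Other signals also moved in Ca-free medium. The summed signal of 10 of 10 oviduct and uterine epithelium markers was 1147 to 1500 in Ca-free medium, 1684 to 2030 after 20 pulses and 1893 to 2288 in control. That of 9 of 10 cumulus and granulosa cell markers was 1642 to 1948 in Ca-free medium, 1861 to 2175 after 20 pulses and 2108 to 2351 in control. That of 7 of 10 blood cell markers was 987 to 1051 in Ca-free medium, 1240 to 1583 after 20 pulses and 1254 to 1546 in control. All 3 sums were lower in Ca-free medium than in control with an exact two-sided permutation p of 0.0286, the smallest that 4 against 4 arrays allow. The median signal of a whole array was also lower there, at 128 to 131 in Ca-free medium and 165 to 177 in control. After 20 pulses it was 158 to 179. Whether the sums fell beyond that shift was not tested. The cumulus marker Amhr2 went the other way, at 1026 ± 171 in Ca-free medium and 869 ± 20.8 in control (limma adjusted p = 0.137). MAS5 gives a positive signal to every probe set, so 0 markers were at 0.

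The log2 3′ over 5′ ratio of the Gapdh probe sets, a measure of RNA length, was also lower in Ca-free medium than in control, with a difference of -0.88 (exact permutation p = 0.0286), and that of Actb differed by -0.20 (exact permutation p = 0.429). After 20 pulses these ratios differed from control by -0.15 for Gapdh (exact permutation p = 0.429) and by -0.42 for Actb (exact permutation p = 0.0857). The Actb ratio divided the controls into arrays 1 and 2, at 1.59 and 1.67, and arrays 3 and 4, at 2.69 and 2.64. The part of these markers and ratios in the member results was not tested.

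Upf1, the RNA helicase at the centre of the pathway, was the single member called higher in Ca-free medium. Its probe set 1419685_at read 311, 299, 322 and 312 on the Ca-free arrays, 193, 261, 255 and 338 on the 20-pulse arrays, and 253, 212, 270.0 and 211 on the control arrays. The Ca-free arrays lay close together and above every control array, while the 20-pulse arrays spread across both. The log2 change in Ca-free medium was 0.36 (SE 0.14, limma adjusted p = 0.0483), and after 20 pulses it was 0.11 (limma adjusted p = 0.735). The call was lost in 16 of the 24 alternative settings that gave a value, including scaling to the hybridization controls (0.18, limma adjusted p = 0.303) and every fit with an array left out except that without control array 3. With an array left out the change stayed at 0.32 to 0.42. It was 0.63 with quantile normalization (limma adjusted p = 0.0108) and 0.73 with median scaling (limma adjusted p = 0.000999), and its direction was kept in all 24 settings.

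Upf2, which bridges Upf1 and Upf3, had 2 tested probe sets. Upf2 1435030_at read 2310.4, 3001, 3002 and 2437 on the Ca-free arrays, 2848, 3080.0, 2936 and 3011 on the 20-pulse arrays, and 3066, 3180.1, 2602 and 2713 on the control arrays. The groups overlapped, and the log2 change was -0.11 in Ca-free medium (limma adjusted p = 0.352) and 0.042 after 20 pulses (limma adjusted p = 0.863). With arrays scaled to the same median, the Ca-free change turned to 0.30 (limma adjusted p = 0.0227). Upf2 1445777_at read 63.3, 68.5, 79.3 and 66.3 on the Ca-free arrays, 156, 128, 116 and 132 on the 20-pulse arrays, and 154, 118, 84.8 and 106 on the control arrays.

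Every Ca-free array of Upf2 1445777_at lay below every array of both other groups. Its log2 change in Ca-free medium was -0.52 (SE 0.18, limma adjusted p = 0.0291) and after 20 pulses 0.18 (limma adjusted p = 0.675). With no filter on signal, where that admission plays no part, the adjusted p of the Ca-free change was 0.0326 by limma. The Ca-free call was lost in 11 of 23 alternative settings, among them quantile normalization (-0.23), median scaling (-0.22) and each fit without Ca-free array 1, 2 or 4 or control array 1 or 2, with changes of -0.63 to -0.41 when an array was left out. Compared with 1435030_at within each array, it fell further by 0.42 in Ca-free medium (a difference of -0.42, 95% interval -0.69 to -0.14, limma adjusted p = 0.0331). This was the 1 call among the 4 within-gene differences of Smg5, Smg6 and Upf2 in that comparison, where 23.5% of all such differences were called. After 20 pulses, 0 of those 4 were called by limma and 0 passed an unadjusted p under 0.05, beside 0.681% called over all genes. The within-gene call of Upf2 also rests on the probe set that passed the filter through control and 20 pulses, and with no filter it was lost. It was lost too against controls 1 and 2 alone, against controls 3 and 4 alone, and without any 1 of Ca-free arrays 2, 3 or 4 or of control arrays 1 or 4. With quantile normalization the Ca-free changes of the 2 probe sets were nearly equal, at -0.23 for 1445777_at and -0.24 for 1435030_at.

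Smg5, which binds phosphorylated Upf1, had 2 tested probe sets. Smg5 1434546_at read 716, 741, 1074 and 819.6 on the Ca-free arrays, 961, 932, 1087 and 976 on the 20-pulse arrays, and 1158, 1071, 1163 and 1305 on the control arrays. It was lower in Ca-free medium than in control by a log2 change of -0.49 (SE 0.11, limma adjusted p = 0.00453), with Ca-free array 3 just above the lowest control array. After 20 pulses the change was -0.24 (limma adjusted p = 0.319). The Ca-free call was kept in 24 of 25 alternative settings and lost only under median scaling.

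The second probe set of this gene, Smg5 1451797_at, read 225, 207, 207 and 209 on the Ca-free arrays, 372, 280.0, 290.1 and 245 on the 20-pulse arrays, and 295, 306, 218 and 234 on the control arrays. The Ca-free arrays lay within a narrow band below all 20-pulse arrays, and the highest of them was above the lowest control array. Its change was -0.26 in Ca-free medium (limma adjusted p = 0.126) and 0.15 after 20 pulses (limma adjusted p = 0.624). The difference between the changes of the 2 probe sets did not pass the threshold in either comparison.

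Smg6, the endonuclease that cuts the target mRNA, had 3 tested probe sets, of which 1 was called. Smg6 1433911_at read 159.9, 219, 238 and 127 on the Ca-free arrays, 329, 312, 280.2 and 257 on the 20-pulse arrays, and 324, 272, 254 and 263 on the control arrays. All Ca-free arrays lay below all arrays of both other groups, although they spread widely among themselves. The log2 change was -0.53 in Ca-free medium (SE 0.16, limma adjusted p = 0.0152) and 0.075 after 20 pulses (limma adjusted p = 0.859). The Ca-free call was lost under quantile normalization, where the change was -0.22, under median scaling, where it was -0.17, with Ca-free arrays 2 and 3 alone, where it was -0.25, and against controls 3 and 4 alone, where it was -0.44.

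Smg6 1445418_at read 178, 192, 185 and 173 on the Ca-free arrays, 219.9, 249, 217 and 204 on the 20-pulse arrays, and 218, 174, 239 and 257 on the control arrays. Its Ca-free arrays lay below all 20-pulse arrays and overlapped control only through control array 2, with a log2 change from control of -0.24 (limma adjusted p = 0.137). Smg6 1425883_at read 152, 110.2, 135 and 91.9 on the Ca-free arrays, 169, 104, 145 and 152 on the 20-pulse arrays, and 139.7, 137, 159.7 and 124 on the control arrays. All 3 groups of that probe set overlapped, and its change from control in Ca-free medium was -0.17 (limma adjusted p = 0.431). After 20 pulses the change was 0.0094 for 1445418_at (limma adjusted p = 0.983) and 0.0079 for 1425883_at (limma adjusted p = 0.990).

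Casc3, a core protein of the exon junction complex, had 1 probe set, 1416736_at. It read 1060.1, 1099, 1045 and 1134 on the Ca-free arrays, 1452, 1345, 1216 and 1247 on the 20-pulse arrays, and 1628, 1413, 1319 and 1282 on the control arrays. All Ca-free arrays lay below all arrays of both other groups. The log2 change was -0.36 in Ca-free medium (SE 0.086, limma adjusted p = 0.00487), although it turned to 0.038 under median scaling, and after 20 pulses it was -0.096 (limma adjusted p = 0.630). Against controls 3 and 4 alone the Ca-free change was -0.26 and did not pass the threshold.

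**Figure D2:**
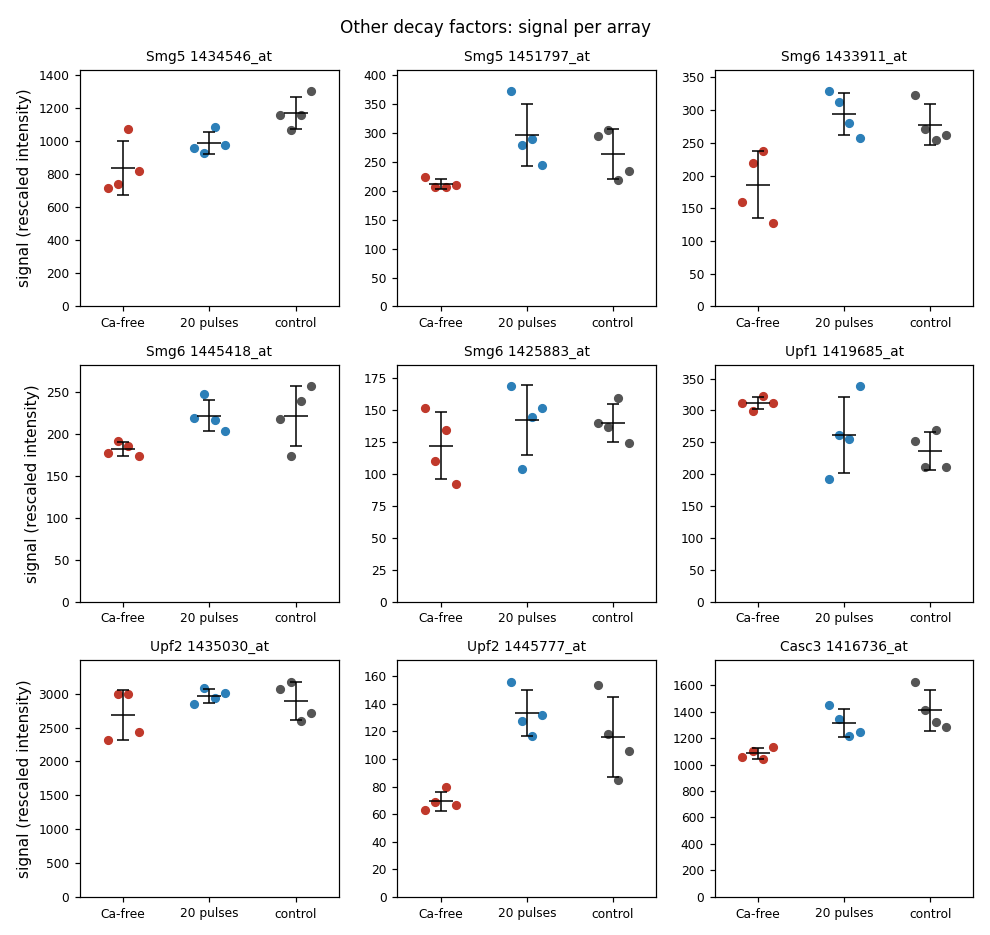
Signal (rescaled intensity, linear axes from 0) of the 9 probe sets of Smg5, Smg6, Upf1, Upf2 and Casc3, with a panel each. Points are arrays of Ca-free medium, 20 pulses and control from left to right, and bars are the group mean and SD of 4 arrays. The Ca-free arrays lie below all control arrays for Smg6 1433911_at, Upf2 1445777_at and Casc3 1416736_at, and above them for Upf1 1419685_at.

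The treatments were compared with each other directly for all 12 tested probe sets. Ca-free medium was lower than 20 pulses for 4 of them and higher for 0 by limma, and 6 passed an unadjusted p under 0.05. Over all tested probe sets, 23.4% were called lower and 9.22% higher in this comparison. For 6 of the 12, all Ca-free arrays lay below all 20-pulse arrays, beside 22.2% of all tested probe sets, and for 0 did they lie above, beside 9.29%. The median log2 change of the 12 was -0.24, beside -0.17 over all tested probe sets. These counts and this median are not fully independent of how the 12 came into the test. Upf2 1445777_at, called lower and with all Ca-free arrays below all 20-pulse arrays, passed the filter only through 20 pulses and control. Smg1 1457262_at was chosen for a signal above control in both treated groups, which favours treated groups that are alike. In the same comparison the log2 3′ over 5′ ratio differed by -0.73 for Gapdh and by 0.22 for Actb, and the hybridization controls by 0.37 (exact permutation p = 0.0286 each), and their part in the calls was not tested.

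The 4 calls between the treatments were Upf2 1445777_at, Smg6 1433911_at, Smg5 1451797_at and Casc3 1416736_at. The log2 change of Ca-free medium against 20 pulses was -0.70 for Upf2 1445777_at (SE 0.18, limma adjusted p = 0.00970, and 0.0137 with no filter on signal) and -0.61 for Smg6 1433911_at (SE 0.16, limma adjusted p = 0.0105). It was -0.42 for Smg5 1451797_at (SE 0.13, limma adjusted p = 0.0287) and -0.27 for Casc3 1416736_at (SE 0.086, limma adjusted p = 0.0279), with a turn to 0.099 under median scaling. Under quantile normalization none of the 4 passed the threshold, with changes of -0.43 for Upf2 1445777_at, -0.33 for Smg6 1433911_at, -0.15 for Smg5 1451797_at and -0.26 for Casc3. Under median scaling none of the 4 did either, and Upf1 was called higher (0.59, limma adjusted p = 0.00629). In this comparison median scaling called 31.6% of all tested probe sets higher and 3.52% lower, and quantile normalization 5.09% and 4.99%. With an array left out, the call of Smg5 1451797_at was lost without Ca-free array 2, 3 or 4 or 20-pulse array 1 or 3, and that of Casc3 without Ca-free array 1 or 3 or 20-pulse array 1 or 2. Over the 8 fits that left out an array, the change was -0.49 to -0.31 for Smg5 1451797_at and -0.30 to -0.22 for Casc3. The change of Upf1 was 0.25 (95% interval -0.047 to 0.54, limma adjusted p = 0.176) and that of Smg5 1434546_at was -0.25 (limma adjusted p = 0.103). Among the 6 within-gene differences in this comparison, 1 was called, that of Upf2 1445777_at against 1435030_at at -0.55 (limma adjusted p = 0.0162), beside 13.8% of all such differences. That call rests on the probe set that passed the filter only through 20 pulses and control. With quantile normalization the changes were -0.43 for 1445777_at and -0.25 for 1435030_at.

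**Figure D3:**
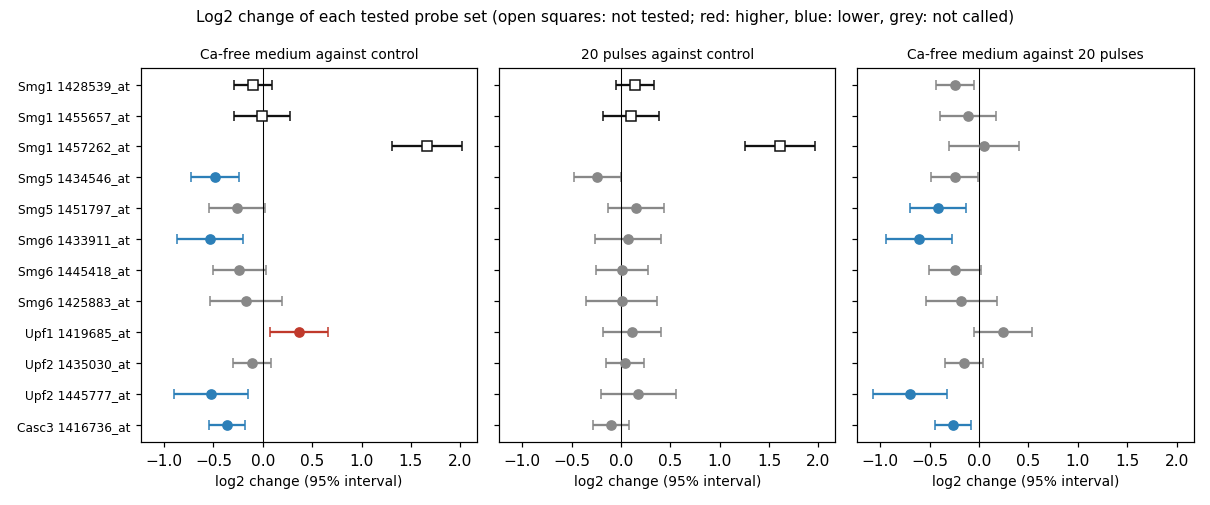
Log2 change with 95% interval (horizontal axis) of the 12 tested probe sets (rows) in Ca-free medium against control, 20 pulses against control and Ca-free medium against 20 pulses. Open squares are Smg1 values that were not tested, and their intervals are drawn as a description and are not read as a test. Red points were called higher, blue points lower and grey points were not called. Smg1 1457262_at lies at 1.66 and 1.61 in the first and the second panel and at 0.054 in the third.

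The direction of many members in Ca-free medium depended on how the arrays were put on a common scale. With a common trimmed mean, the median log2 change of all tested probe sets was -0.18, with quantile normalization -0.019, with a common median 0.20, and with the 9 hybridization controls as the reference -0.36. The hybridization controls themselves, RNA added in fixed amounts, were higher on the Ca-free than on the control arrays by 0.21 on the log2 scale (exact permutation p = 0.0286). Among the 9 member probe sets without Smg1, the calls were 1 higher and 4 lower with the trimmed mean, 1 higher and 2 lower with quantile normalization, 2 higher and 0 lower with median scaling, and 0 higher and 7 lower with the hybridization controls. Over all tested probe sets, 9.85% were called higher and 9.93% lower with quantile normalization, 36.9% and 5.46% with median scaling, and 2.74% and 49.2% with the hybridization controls. Smg1 1457262_at differed from control in Ca-free medium by 1.66, 1.89, 2.01 and 1.48 under these scalings in the same order. After 20 pulses its difference was 1.61, 1.63, 1.61 and 1.76, and 0 of the 9 other probe sets were called by limma under any of the 4 scalings.

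**Figure D4:**
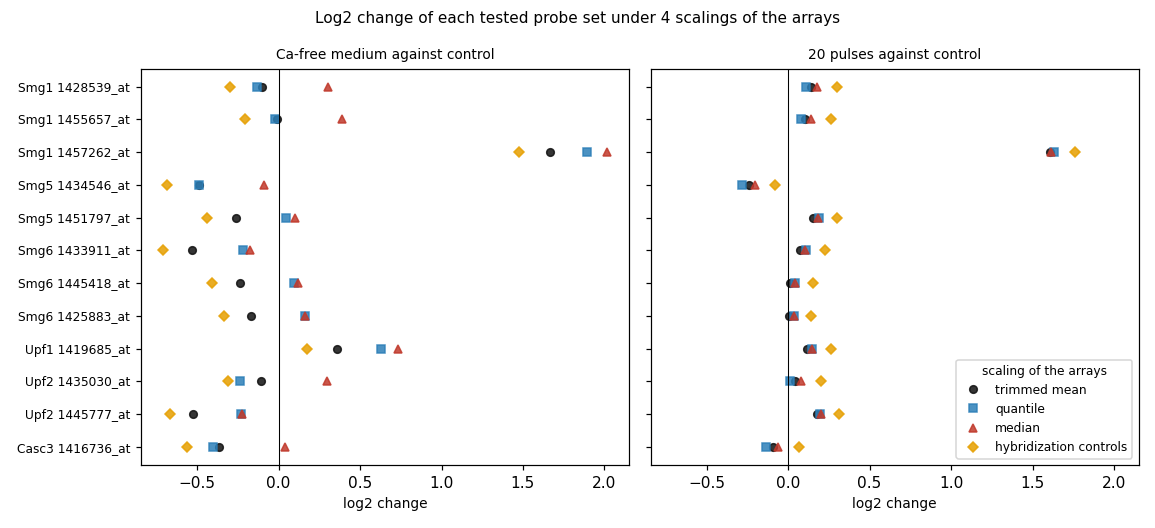
Log2 change (horizontal axis) of the 12 tested probe sets (rows) in Ca-free medium against control and in 20 pulses against control, under 4 scalings of the arrays given by symbol. In Ca-free medium each probe set shifts with the scaling and Casc3 runs to 0.038 under median scaling, while Smg1 1457262_at stays between 1.48 and 2.01.

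Beyond the 9 listed genes, 89 of 98 genes of the wider decay pathway had a tested probe set, and the brightest of each gene was used. In Ca-free medium 25 of the 89 were called higher and 14 lower than in control by limma, beside 12.2% higher and 28.8% lower over the 13599 genes tested. After 20 pulses, 2 were called higher and 1 lower, beside 0.735% and 0.331% over all genes. The split in Ca-free medium changed with the scaling, to 13 higher and 9 lower with quantile normalization, 64 higher and 1 lower with median scaling and 6 higher and 22 lower with the hybridization controls. Over all genes tested, 8.96% were called higher and 11.5% lower with quantile normalization, 42.2% and 5.13% with median scaling, and 2.47% and 48.7% with the hybridization controls, and the splits of single lists are to be read against these shares. Under all 4 scalings, 6 genes were called higher in Ca-free medium (Etf1, Pnn, Lsm6, Pan3, Exosc1 and Dis3) and 0 lower. The share of all genes called under all 4 scalings is not given here, so this count is not read as a result about the pathway.

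The RNA exosome degrades RNA from the 3′ end, and the Ski complex feeds it. Among 15 tested genes of these complexes and of the related factors Mtrex, Hbs1l and Pelo, 7 rose and 0 fell in Ca-free medium. Their median log2 change was 0.24, beside -0.13 over all genes. All 15 had a mean signal above 300. Over all probe sets with at least that mean, the median was -0.0016, with 17.7% called higher and 20.9% lower. Among the 15 genes the split was 4 higher and 0 lower with quantile normalization, 13 and 0 with median scaling, and 2 and 1 with the hybridization controls as the reference. Exosc1, a cap subunit, averaged 3457 ± 135 in Ca-free medium and 2553 ± 62.3 in control, a log2 change of 0.43 (limma adjusted p = 0.000207). Dis3, the catalytic nuclease, averaged 2384 ± 155 in Ca-free medium and 1689 ± 215 in control, a log2 change of 0.50 (limma adjusted p = 0.00128). Exosc8, a ring subunit, changed by 0.25 (limma adjusted p = 0.00248). After 20 pulses, 0 of the 15 were called by limma, with 1 at an unadjusted p under 0.05.

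Of 13 tested cofactors outside the list, 3 rose and 4 fell in Ca-free medium, against 8 and 0 with median scaling and 1 and 5 with the hybridization controls. Etf1, the release factor that recognises stop codons, averaged 5104 ± 397 in Ca-free medium and 3364 ± 289 in control, a log2 change of 0.60 (limma adjusted p = 0.000323). Gspt1, the GTPase that works with Etf1, changed by 0.31 (limma adjusted p = 0.00264). Dhx34, a helicase of the pathway, averaged 340 ± 50.8 in Ca-free medium and 538 ± 47.8 in control, a change of -0.62 (limma adjusted p = 0.00281). Of 7 tested exon junction genes, 3 rose and 1 fell, against 6 and 0 with median scaling and 1 and 2 with the hybridization controls. Pnn changed by 0.57 (limma adjusted p = 0.00140), Alyref, an mRNA export factor, by 0.41 (limma adjusted p = 0.0108), and Rbm8a, the partner of Magoh, by 0.23 (limma adjusted p = 0.00721).

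Of 16 tested decapping and 5′ to 3′ decay genes, 4 rose and 4 fell in Ca-free medium, against 11 and 1 with median scaling and 1 and 5 with the hybridization controls. Lsm6, a subunit of the Lsm ring that promotes decapping, changed by 0.47 (limma adjusted p = 0.00140), Dcp1b, a decapping cofactor, by -0.84 (limma adjusted p = 0.00389) and Edc3, an enhancer of decapping, by -0.39 (limma adjusted p = 0.00792), although Edc3 turned to 0.0072 under median scaling. Dcp1b passed the filter only through 20 pulses and control, with means of 120 and 149, since its Ca-free mean is 69.8. Its admission to the test is therefore not independent of a low Ca-free signal. After 20 pulses 1 of these 16 was called. Dcp2, the decapping enzyme, averaged 1614 ± 84.5 after 20 pulses and 1148 ± 128 in control, a log2 change of 0.49 (limma adjusted p = 0.0170), and 1276 ± 105 in Ca-free medium, where the change was 0.15 (limma adjusted p = 0.178).

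Of 16 tested deadenylase genes, 4 rose and 3 fell in Ca-free medium, against 11 and 0 with median scaling and 1 and 4 with the hybridization controls. Cnot10 of the CCR4-NOT complex averaged 1324 ± 242 in Ca-free medium and 2113 ± 142 in control, a log2 change of -0.68 (limma adjusted p = 0.000540). Pan3, a subunit of the PAN2-PAN3 deadenylase, changed by 1.05 (limma adjusted p = 0.0178), from arrays that spread widely within both groups (1633 ± 634 in Ca-free medium and 821 ± 463 in control). Cnot6, a catalytic subunit, was called higher in both treatments, averaging 2401 ± 172 in Ca-free medium, 2498 ± 119.8 after 20 pulses and 1983 ± 122 in control. Its log2 changes were 0.27 (limma adjusted p = 0.00809) and 0.33 (limma adjusted p = 0.0327) against the same controls. Dcp2 and Cnot6 were the 2 pathway genes called higher after 20 pulses under all 4 scalings, and the share of all genes so called is not given here.

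Of 12 tested kinases of the Smg1 family and their assembly factors, 3 rose and 1 fell in Ca-free medium, against 10 and 0 with median scaling and 0 and 2 with the hybridization controls. Atm and Atr, both kinases of the DNA damage response, changed by 0.43 (limma adjusted p = 0.00503) and by 0.36 (limma adjusted p = 0.00381), and Trrap, a pseudokinase of histone acetyltransferase complexes, by 0.35 (limma adjusted p = 0.0139). After 20 pulses 0 of the 12 were called by limma, with 1 at an unadjusted p under 0.05. Of 10 transcripts known as targets of the pathway, 1 rose and 1 fell in Ca-free medium, against 5 and 0 with median scaling and 0 and 3 with the hybridization controls, and their median log2 change was 0.049. Gas5, a host RNA of small nucleolar RNAs, changed by 0.20 (limma adjusted p = 0.0354), which turned to -0.0085 with the hybridization controls as the reference. Atf4, a transcription factor of the stress response, changed by -0.50 (limma adjusted p = 0.00382). After 20 pulses the median of the 10 was -0.20, and 1 was called. Snhg1, also a host RNA of small nucleolar RNAs, averaged 8745 ± 135 after 20 pulses and 11082 ± 519 in control, a log2 change of -0.34 (limma adjusted p = 0.00632). With the hybridization controls as the reference, the Snhg1 change was -0.18 (limma adjusted p = 0.101). The 3 calls after 20 pulses numbered 1 to 3 with an array left out, where 0.292% to 1.1% of all tested probe sets were called higher and 0.0827% to 0.3% lower.

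**Figure D5:**
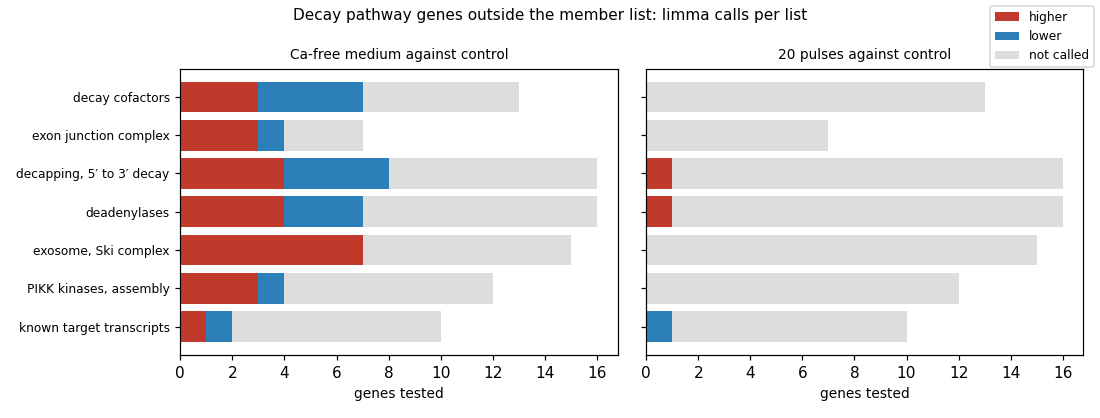
Number of tested genes (horizontal axis) in each of 7 decay pathway lists that were called higher (red), called lower (blue) or not called (grey) by limma, in Ca-free medium against control and in 20 pulses against control. The exosome and Ski list has 7 higher and 0 lower of 15 in Ca-free medium, and 3 genes of all lists were called after 20 pulses.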

How the data were processed

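Total RNA of 12 blastocyst samples was labelled as biotinylated cRNA with an Affymetrix small-sample assay, per the labels' protocols. The deposited values are linear intensity, made by the authors with MAS5, per the submitters' processing notes, and no MAS5 version is named there. That table held 45037 probe sets and 64 array controls, with 0 missing values and 0 identical pairs of arrays. Precision is limited by the number of arrays. The platform's probe table paired 34945 probe sets with 1 gene, 932 with several and 9160 with none, and 34741 symbols were matched through RefSeq.

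Each array was rescaled to a 2% trimmed mean of 500, 32 was added, and log2 taken. The 27808 probe sets whose mean signal reached 100 were tested with limma 3.58.1 in R 4.3.3 (lmFit, eBayes with an intensity trend, 12 arrays in 1 model) at a Benjamini-Hochberg adjusted p under 0.05 over all of them. The same test was run on the log2 difference of each probe set to the brightest of its gene. For array controls and marker sums, exact permutation tests (two-sided) were used. The procedure was tested on simulated data. The member genes, gene lists and tests were chosen with earlier results of these data known.

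All member probe sets are described, with the 3 genes of smallest p per pathway list in either comparison with control and the 5 probe sets that follow Smg1 1457262_at most closely. Same-numbered arrays of different groups correlated in their deviations from the group means with a mean r of 0.016, so the main model has no replicate block. Alternatives were other scalings, added values of 1 and 100, no filter or a minimum of 300, no trend, array weights, the 8 arrays compared alone, a replicate block, pairs of controls or of Ca-free arrays, a threshold of 0.01, and each array left out. Median scaling and scaling to the hybridization controls were added for the pathway counts after the data were seen. Motifs were searched in the RefSeq windows of 8 of the 9 genes.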

Additional observations from a re-analysis of the deposited data

Results flagged for a closer look

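Smg5 1451797_at had a Ca-free array that stood apart from the rest of its group. Array 1 read 225 and the other 3 read 207 to 209, so that the gap made up 0.862 of the group's range, above Dixon's critical value for 4 samples. Over the 13 member probe sets 39 groups were examined and 1 stood out, and chance alone marks about 1 group in 20. The difference of 225 from 209 is small beside the 20-pulse arrays at 245 to 372 and the control arrays at 218 to 306.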

How the results depend on the processing

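For Ca-free medium against control, 5 member calls were made. There were 3 calls with quantile normalization, 2 with median scaling (both higher, Upf1 and Upf2 1435030_at, with none of the 4 lower calls left), 2 of the 3 probe sets left at a minimum mean signal of 300, 1 against controls 3 and 4 only, 2 with Ca-free arrays 2 and 3 only and 2 at an adjusted p under 0.01, and 3 to 5 with an array left out (3 without Ca-free array 1). Of all tested probe sets, the shares called higher and lower than control were 17.7% and 20.9% at a minimum of 300. Against controls 3 and 4 only they were 7.48% and 16.2%. With Ca-free arrays 2 and 3 only they were 8.15% and 21.5%, and at 0.01 they were 5.56% and 15.6%. For Ca-free medium against 20 pulses, 4 member calls were made, all lower. There were 0 with quantile normalization, 1 with median scaling (Upf1 higher, with none of the 4 left), 10 with scaling to the hybridization controls, 1 of the 5 probe sets left at a minimum of 300, 0 with Ca-free arrays 2 and 3 only and 1 at an adjusted p under 0.01, and 2 to 6 with an array left out (2 without 20-pulse array 1). Beside these, the shares of all tested probe sets called higher and lower than 20 pulses were 5.09% and 4.99% with quantile normalization. They were 31.6% and 3.52% with median scaling, and 0.329% and 71% with the hybridization controls. At a minimum of 300 they were 16.7% and 18%. With Ca-free arrays 2 and 3 only they were 5.77% and 15%, and at 0.01 they were 4.19% and 9.22%. Median scaling turned Casc3 to 0.038 against control and 0.099 against 20 pulses, and Upf2 1435030_at to 0.30 against control. Pathway calls in Ca-free medium were 39, and 22 with quantile normalization, 65 with median scaling, 25 against controls 3 and 4 only and 29 to 37 with an array left out. With an array left out, 8.79% to 10.3% of all tested probe sets were called higher and 23.8% to 27.3% lower, and the shares for the other settings are given above. After 20 pulses the pathway calls were 3, and 5 with a minimum of 300, 6 with the hybridization controls, 1 against controls 1 and 2 only, 5 against controls 3 and 4 only and 1 to 3 with an array left out (1 without control array 3). Of all tested probe sets, 2.45% were then called higher and 1.05% lower at a minimum of 300, and 7.59% and 0.125% with the hybridization controls. Against controls 1 and 2 only the shares were 0.546% and 0.188%, and against controls 3 and 4 only 2.27% and 0.622%. With an array left out they were 0.292% to 1.1% and 0.0827% to 0.3%. The 1 within-gene call in Ca-free medium against control became 0 with no filter, against controls 1 and 2 only and against controls 3 and 4 only, and was 0 to 1 with an array left out. That against 20 pulses became 0 with a minimum of 300, where the comparison with control had no pair left. The difference in mean log2 3′ to 5′ ratio of Actb and Gapdh between Ca-free medium and control was -0.54 (exact permutation p = 0.0286), and -0.64 to -0.43 with an array left out. The causes were not tested. With the replicate number as a block, the Ca-free calls against control were 0 higher and 4 lower, since Upf1 had an adjusted p of 0.0635 by limma, and no other member call changed. Same-numbered arrays had a mean r of 0.016, beside -0.0052 for arrays of other groups with another number. For 7 of 12 arrays the best correlation was with their own number, which most arrays of the other groups do not carry. Whether the numbers pair the samples was not tested and is not known. Dim probe sets such as Upf2 1445777_at and Smg1 1457262_at in control are the least precise.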
